A study of Homo sapiens with 24 samples.

Results

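The major histocompatibility complex (MHC) on the short arm of chromosome 6 was described as the peaks on chromosome 6 that overlapped chr6:28477797-33448354 in hg19, in the 24 FAIRE-seq peak lists of the series. These were 11227 of the 4683186 peaks deposited, on 4.97 Mb. FAIRE-seq sequences the DNA that stays free of nucleosomes after cross-linking and phenol extraction, so a peak marks open chromatin. The libraries came from LNCaP, an androgen-sensitive prostate cancer cell line, and from RES-A, an LNCaP derivative made resistant to the androgen receptor inhibitor enzalutamide (ENZ) by long-term exposure. A preculture of 3 days in charcoal-stripped serum (5%) came first, and for RES-A alone it also contained 10 µM ENZ. An 18 h treatment followed with the solvent DMSO, with the androgen dihydrotestosterone (DHT, 10 nM), with ENZ (10 µM) or with DHT+ENZ, and each of the 8 groups had 3 libraries. The DMSO and DHT groups of RES-A had therefore met ENZ during the preculture, and LNCaP had not. RES-A is 1 resistant derivative, so a difference between the sublines is a difference between these cell populations.

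The MHC holds 3 kinds of gene neighbourhood. Class I genes encode the molecules that show peptides from inside the cell to cytotoxic T cells, and they are active in most nucleated cells. Class II genes encode the molecules that show peptides to helper T cells, and they are active mainly in professional antigen-presenting cells and, elsewhere, after interferon. The class III segment between them is densely packed with genes of other kinds, among them complement components and members of the tumour necrosis factor family. Here class I was taken up to 31.5 Mb, class III up to 32.2 Mb and class II beyond it. These boundaries were not set against gene models, since no annotation on hg19 was used, and regions are given by position.

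Each library held 180 to 633 MHC peaks, 180 to 521 in LNCaP and 466 to 633 in RES-A. The number of peaks followed depth: the genome-wide background recovered from the lists ran from 0.406 to 5.99 reads per base, and the shallowest libraries, LNCaP ENZ replicate 1 and LNCaP DHT replicate 1, had the fewest MHC peaks, 180 and 214. Libraries were therefore compared on the 50000 peaks of each list with the highest −log10 p, called top-ranked below. The MHC share of these peaks still moved with depth. Between that share and log2 background, Pearson's r was 0.662 in the 12 LNCaP libraries (permutation p = 0.0204, adjusted p = 0.0272) and 0.611 in the 12 RES-A libraries (permutation p = 0.0355, adjusted p = 0.0387). By rank, Spearman's rho was 0.207 in LNCaP (permutation p = 0.514) and 0.682 in RES-A (permutation p = 0.0177, adjusted p = 0.0272). Adjustment was over both coefficients of all 6 relations computed. Leaving out the 2 libraries whose background lay farthest from the median gave an r of -0.372 in LNCaP, where the relation rested on those libraries, and 0.434 in RES-A. Of the top-ranked peaks of all libraries, 3774 lay in the MHC. Class I held 57.4% of all MHC peaks on 60.8% of the length, class III 14.8% on 14.1%, and class II 27.8% on 25.1%. Among the top-ranked peaks the class I share was 49.2%, and those of class III and class II were 20.1% and 30.7%. No peak of any list crossed the ends of the interval or a class boundary.

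Among top-ranked peaks class III was the densest segment. Over the 24 libraries it had 45.1 ± 6.91 top-ranked peaks per Mb (SD), class II had 38.7 ± 5.50 and class I had 25.6 ± 4.56. The density of class III was 1.77 times that of class I, and higher in 24 of 24 libraries (two-sided sign-flip permutation test over libraries, p = 1e-05, adjusted p = 1.5e-05). It was 1.16 times that of class II, and higher in 22 of 24 libraries (permutation p = 4e-05, adjusted p = 4e-05). Class II was denser than class I by 1.52 times, also in 24 of 24 libraries (adjusted p = 1.5e-05). With all deposited peaks the order of class III and class II turned, with 98.6 ± 21.3 and 104 ± 21.8 peaks per Mb, a ratio of 0.948 with class III higher in 10 of 24 libraries (permutation p = 0.026), and class I had 88.9 ± 20.2. Regions merged from all deposited peaks numbered 290 per Mb in class II, 225 in class I and 173 in class III. In summit pileup class III stood apart from the others too. The median summit pileup, which is the number of overlapping fragments at the top of a peak, was higher in class III than in class I by 0.43 on the log2 scale (23 of 24 libraries, adjusted p = 1.5e-05) and higher than in class II by 0.43 (24 of 24). Classes I and II did not differ detectably in pileup, with a difference of 0.0045 ± 0.0759 (SD, n = 24, permutation p = 0.772). Fold enrichment, the pileup over the background near the peak, did not order the classes alike in all libraries. Its median in class III was above that in class I in every library except RES-A ENZ replicate 3. There the medians in class III, class I and class II were 9.65, 9.89 and 10.1. Against class II the order varied. In LNCaP DHT+ENZ replicate 1 the medians of class III, class I and class II were 8.98, 7.53 and 7.45. In RES-A DMSO replicate 2 they were 10.3, 9.33 and 10.7. The class difference in fold enrichment was not tested.

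Part of the MHC was open in every library. Top-ranked peaks of all libraries were merged into regions, 288 of them in the MHC and 119361 in the genome. The MHC regions were top-ranked in a median of 13 libraries, against 8 for the genome, and 16.7% of them (48 regions) were top-ranked in all 24, against 10.6% of the genome and 6.18% of the rest of chromosome 6. By class the regions top-ranked in all 24 were 19 of 158 in class I, 15 of 50 in class III and 14 of 80 in class II. The highest pileups of class I were at chr6:30584952-30585741 and chr6:31125878-31126450, at mean percentiles of 98.4 and 96.7 within the lists. Those of class III were at chr6:31794626-31795546 and chr6:31830527-31831061, at percentiles of 98.8 and 97.8. Those of class II were at chr6:33358997-33359690 and chr6:33385556-33386315, at 98.6 and 98.0, close to the far end of the interval. At the opposite extreme, the 500 kb between 29.0 and 29.5 Mb were almost empty, with 0 to 2 top-ranked peaks in a library.

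**Figure D1:**
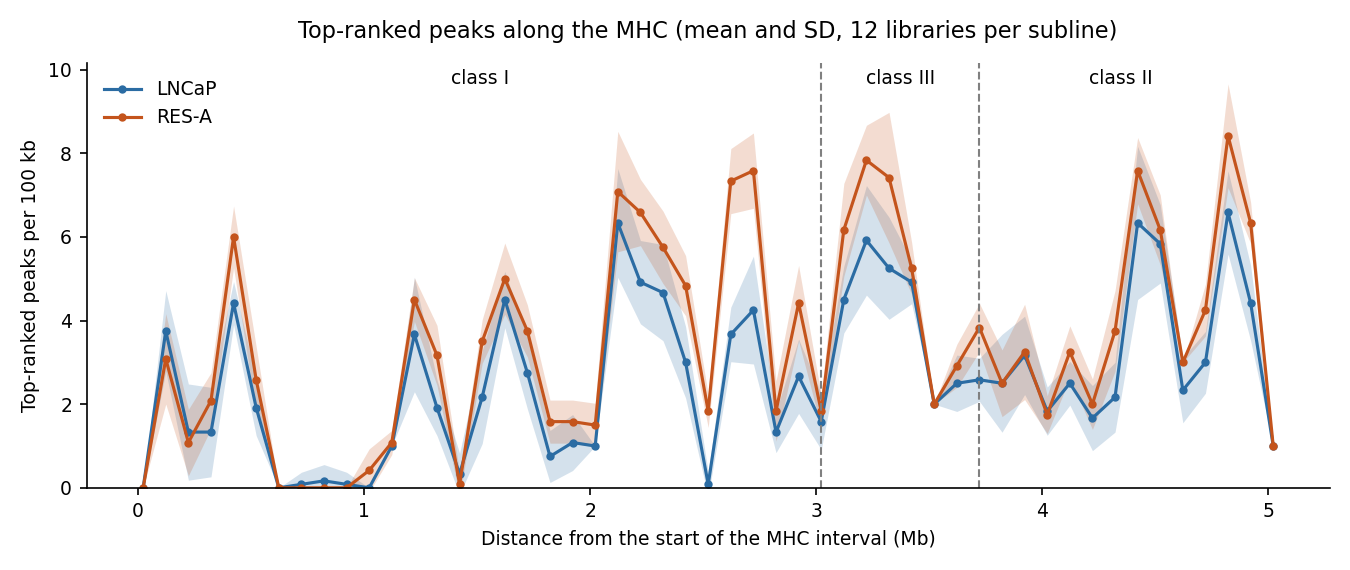
Top-ranked FAIRE-seq peaks per 100 kb (y axis) against the distance from the start of the MHC interval in Mb (x axis). Lines are means and bands are SDs of 12 libraries per subline, dashed lines are the class boundaries, and the first and last bins lie partly outside the interval. The stretch from about 0.57 to 1.07 Mb was nearly free of top-ranked peaks in both sublines, and the gap between them was wide near 2.6 Mb, where LNCaP had 3.67 peaks in a bin and RES-A 7.33.

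Like the rest of chromosome 6, described below, the MHC took a larger share of the top-ranked peaks in RES-A than in LNCaP. In LNCaP 0.272% ± 0.0166 (SD, n = 12) of the top-ranked peaks lay there, with a lowest value of 0.238%, a median of 0.276% and a highest of 0.292%. In RES-A the share was 0.358% ± 0.0162 (SD, n = 12), with a lowest value of 0.334%, a median of 0.357% and a highest of 0.388%. The 2 ranges did not overlap. The ratio was 1.32 (permutation of the sublines within treatments, p = 5e-05, adjusted p = 6e-05). Since the ranges did not overlap, RES-A was higher in 12 of 12 comparisons of libraries with the same treatment and number. Adjusted for log2 background the difference was 0.0864 percentage points, against 0.0860 unadjusted. With all deposited peaks the shares were 0.218% and 0.269%.

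All 3 classes shared this difference. In class I the share went from 0.130% ± 0.0111 in LNCaP to 0.180% ± 0.00793 in RES-A, a ratio of 1.39, and the ranges did not overlap (adjusted p = 6e-05). Class III had 0.0553% ± 0.00521 in LNCaP and 0.0708% ± 0.00612 in RES-A, a ratio of 1.28 (adjusted p = 6e-05). Class II had 0.0867% ± 0.0109 and 0.107% ± 0.00782, a ratio of 1.23 (adjusted p = 6e-05). In class III and class II the ranges overlapped.

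**Figure D2:**
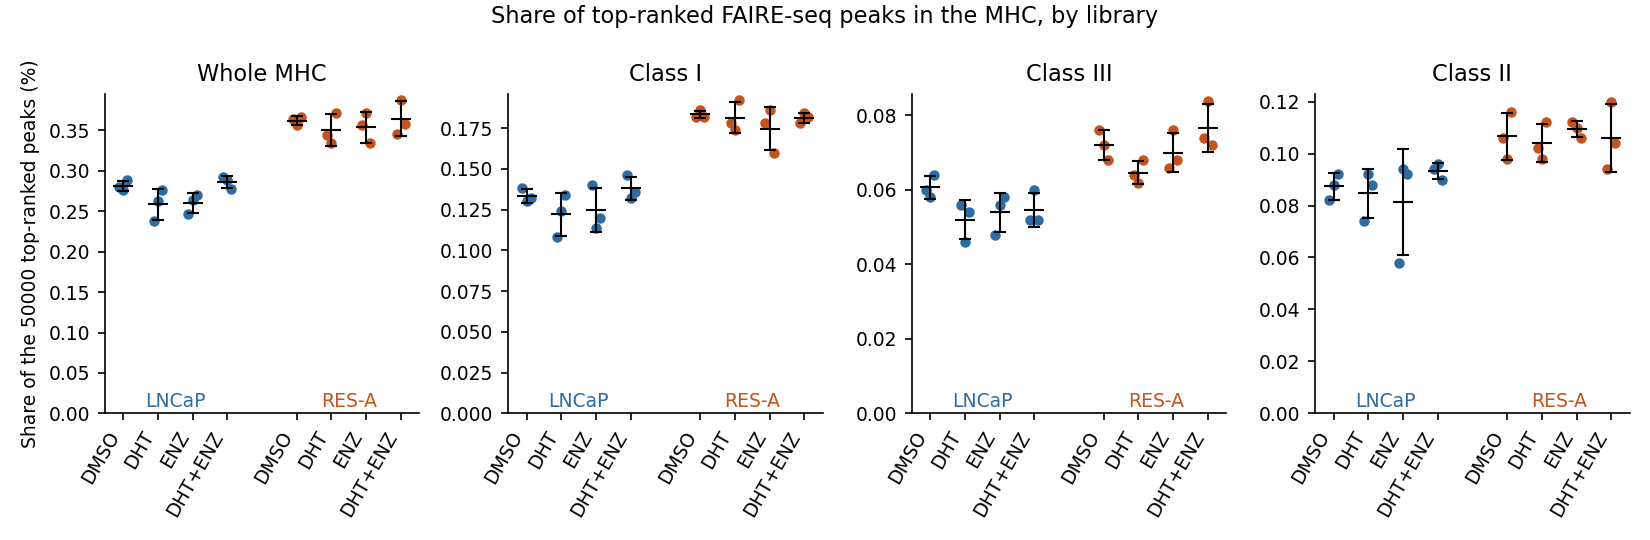
Percentage of the 50000 top-ranked peaks of a library (y axis) that lay in the MHC and in each class, by treatment (x axis), with LNCaP in blue and RES-A in orange. Points are libraries, bars are means with SDs of 3 libraries. For the whole MHC the 12 RES-A libraries sat between 0.334% and 0.388%, all above the LNCaP libraries, at 0.238% to 0.292%.

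The difference was as large or larger around the MHC. In the 5 Mb before it the density was 24.2 ± 1.54 top-ranked peaks per Mb in LNCaP and 32.4 ± 1.57 in RES-A, a ratio of 1.34. In the 5 Mb after it, LNCaP had 20.9 ± 1.51 and RES-A 32.7 ± 0.633, a ratio of 1.56. The whole of chromosome 6 outside the MHC had 12.6 ± 0.540 and 18.3 ± 0.288, a ratio of 1.46, with no overlap of the ranges (permutation p = 5e-05). The MHC itself had 27.3 ± 1.67 and 36.0 ± 1.63. Set against both flanks, the MHC was denser in 24 of 24 libraries, by 0.21 ± 0.0998 on the log2 scale (permutation p = 1e-05, the smallest that the permutations can give). With all deposited peaks that difference was -0.00200 (permutation p = 0.927). The top-ranked advantage was smaller in RES-A (0.14 ± 0.0917) than in LNCaP (0.28 ± 0.0541), a difference of -0.13 (permutation p = 0.00032, adjusted p = 0.00128). As a percentage of the top-ranked peaks of chromosome 6 alone, the MHC share was 6.11% ± 0.290 in LNCaP and 5.55% ± 0.284 in RES-A, so the direction turned (permutation p = 6e-05). By class this share of the chromosome went from 2.92% to 2.79% in class I (permutation p = 0.179), from 1.25% to 1.10% in class III (permutation p = 0.00393) and from 1.94% to 1.65% in class II (permutation p = 0.00097).

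The classes differed in how they stood against the flanks. Class III was above them by 0.72 ± 0.162 on the log2 scale and class II by 0.50 ± 0.176, each in 24 of 24 libraries. Class I was below them by a mean of -0.10 ± 0.113 and above in 3 of 24 libraries (adjusted p = 0.00022), a direction that turned to 0.13 with flanks of 10 Mb. The difference between the sublines in this measure was -0.22 for class II (adjusted p = 0.00366) and -0.17 for class III (adjusted p = 0.00495). For class I it was -0.05 (adjusted p = 0.311).

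**Figure D3:**
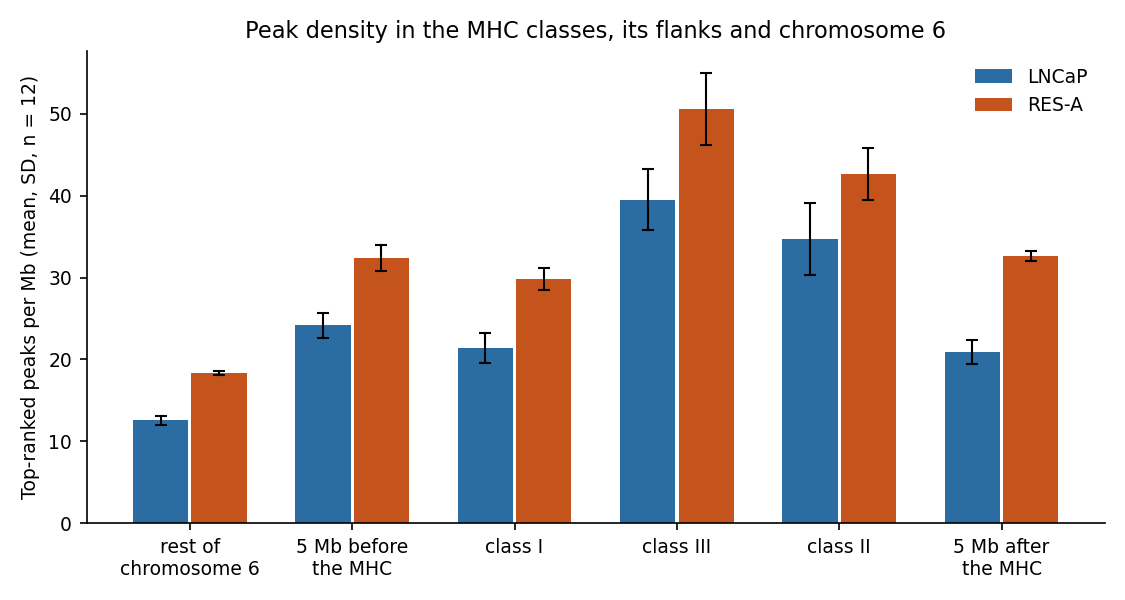
Top-ranked peaks per Mb (y axis, from 0) in the rest of chromosome 6, the 5 Mb on each side of the MHC and the 3 classes (x axis), with LNCaP in blue and RES-A in orange. Bars are means and error bars SDs of 12 libraries. RES-A was higher in every segment shown, from 18.3 against 12.6 in the rest of the chromosome to 50.6 against 39.5 in class III.

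The subline difference was spread along the MHC. Of the 10 windows of 500 kb, 9 had enough peaks to be tested, and 8 of them had a larger share in RES-A at an adjusted p under 0.05. None was larger in LNCaP. In the genome 34.1% of 3934 windows were called larger in RES-A and 27.8% larger in LNCaP. The largest ratio was between 31.0 and 31.5 Mb, at the class III end of class I, with 13.5 ± 2.47 peaks in LNCaP and 23 ± 2.09 in RES-A (ratio 1.70, adjusted p = 0.000257). There the lowest RES-A library had 18 peaks and the highest LNCaP library 16. The next in class I, 30.5 to 31.0 Mb, had 19.0 ± 2.34 and 26.1 ± 1.73 (ratio 1.37), and 29.5 to 30.0 Mb had 9.08 ± 1.88 and 12.3 ± 0.888 (ratio 1.36). Between 30.0 and 30.5 Mb there were 10.1 ± 1.38 and 13.4 ± 1.62 peaks (ratio 1.33).

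The first window of class I, 28.5 to 29.0 Mb, was the one tested that did not pass, with 12.8 ± 2.63 and 14.8 ± 1.34 peaks (ratio 1.16, adjusted p = 0.0576). In class III, the window from 31.5 to 32.0 Mb had 22.6 ± 2.27 peaks in LNCaP and 28.7 ± 2.42 in RES-A (ratio 1.27). The window from 32.0 to 32.5 Mb, which spans the boundary with class II, had 12.6 ± 1.38 and 14.3 ± 2.09 (ratio 1.13, adjusted p = 0.0483). Within class II as bounded here by position, 32.5 to 33.0 Mb had 18.5 ± 3.26 and 22.8 ± 2.45 peaks (ratio 1.23, adjusted p = 0.00494). From 33.0 to 33.5 Mb there were 17.3 ± 1.97 and 23 ± 1.65 (ratio 1.33, adjusted p = 0.000285), in a window that runs past the end of the interval.

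Single regions were called more often in RES-A more frequently than in LNCaP. Of the 288 MHC regions, 85 were top-ranked in fewer than 6 libraries and 110 in more than 18. For the other 93 the 12 libraries of each subline were compared with Fisher's exact test, adjusted over the 38599 such regions of the genome. In the MHC 42 regions (45.2%) were called more often in RES-A, against 31.7% in the genome, and 6 (6.45%) more often in LNCaP, against 26.1%. The rest of chromosome 6 had 52.6% and 11.2%, and the flanks 49.8% and 5.74%. By class, 29 of the 58 tested in class I, 7 of 14 in class III and 6 of 21 in class II were called more often in RES-A. The 6 called more often in LNCaP were 4 in class I and 2 in class II.

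The most one-sided regions lay in class I and class II. Regions top-ranked in all 12 RES-A libraries and in none of LNCaP numbered 3, which was 1.04% of the MHC regions against 1.42% in the genome. None had the reverse pattern, against 0.437% in the genome. The clearest of the 3 was chr6:31117554-31118070, 517 bp in class I. Its summit pileup in RES-A was 33 at the lowest, 52.5 at the median and 69 at the highest, and its fold enrichment there was 8.0 to 17.8. In LNCaP 1 of 12 libraries had a peak of any rank at this place, with a pileup of 12 and a fold enrichment of 3.63 (Fisher's exact test of top-ranked calls, adjusted p = 1.3e-05). The other two were chr6:30698626-30699036 in class I and chr6:32798610-32799249 in class II. They had lower-ranked peaks in 10 and 6 LNCaP libraries, with fold enrichments of at most 5.83 and 4.74, and reached 7.98 and 8.29 in the lowest RES-A library. The next were chr6:30853771-30854128 in class I, top-ranked in 12 and 1 libraries, and chr6:33265215-33266007 in class II, in 11 and 0.

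On the LNCaP side, chr6:28537362-28538034 in class I was top-ranked in 11 LNCaP libraries and no RES-A library (adjusted p = 7.8e-05). All 12 RES-A libraries had a lower-ranked peak there, at a fold enrichment of 3.85 to 5.87, against 4.47 to 10.1 in LNCaP. The same form, a lower rank in RES-A rather than no peak, held for the others named. These were chr6:30018559-30019023 and chr6:30790353-30790768 in class I, top-ranked in 10 and 6 LNCaP libraries, and chr6:32373430-32373910 and chr6:32379738-32380154 in class II, top-ranked in 8 and 7. Each had a peak of some rank in 11 or 12 RES-A libraries. The call at chr6:30790353-30790768 was lost with a replicate block (adjusted p = 0.0543), and without the 2 shallowest libraries it was top-ranked in too few libraries to be tested.

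The top-ranked peaks of the MHC were also higher in RES-A. The log2 ratio of their median summit pileup to that of all top-ranked peaks of the library was -0.08 ± 0.0528 in LNCaP and 0.06 ± 0.0292 in RES-A, a difference of 0.14 with RES-A higher in 12 of 12 comparisons of same-numbered libraries (permutation p = 5e-05, adjusted p = 0.0001). In class III the values were 0.24 ± 0.0809 and 0.45 ± 0.0491, and the ranges did not overlap. Class I differed by 0.11 (adjusted p = 0.0012) and class II by 0.11 (adjusted p = 0.000947). With fold enrichment in place of pileup the MHC difference was -0.04 (permutation p = 0.0262), so the direction turned. It turned in each class too, to -0.11 in class III (permutation p = 0.0023), -0.04 in class II (permutation p = 0.111) and -0.02 in class I (permutation p = 0.299). With 25000 top-ranked peaks the difference was 0.06 for the MHC (permutation p = 0.0543) and -0.01 for class II (permutation p = 0.918).

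Region by region, peak height was compared at the 98 MHC regions that had a deposited peak of any rank in all 24 libraries, with limma over the 29203 such regions of the genome. The other 190 MHC regions lacked a peak in at least 1 library and have no value here. Pileup was taken relative to the median over these regions in the same library. In RES-A it was higher at 68 MHC regions (69.4%), against 32.2% in the genome, and lower at 5, against 29.6%. The median difference was 0.40 on the log2 scale in the MHC and 0.02 over all regions. Class III had 18 of 22 regions higher and none lower (median 0.44). Class I had 30 of 45 higher and 4 lower (median 0.43), and class II 20 of 31 higher and 1 lower (median 0.30). Chromosome 6 outside the MHC moved alike, with 65.8% of 1160 regions higher, 12% lower and a median of 0.39.

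Fold enrichment, in which the pileup is divided by the background the peak caller found near the peak, gave another picture. By this measure 29 of the 98 regions (29.6%) were higher in RES-A and 11 (11.2%) lower, with a median of 0.07. In the genome 18.6% were higher and 23.7% lower, with a median of -0.006. Chromosome 6 outside the MHC had 27.4% and 21.6%, with a median of 0.049. Of the 68 regions with a higher pileup, 40 had no called difference in fold enrichment. The background near the peaks was recovered from these same pileups and fold enrichments, so it is not a separate measurement. The highest pileup and highest fold enrichment of a region may come from different peaks. On the log2 scale, relative to all regions of its library, the background was -0.36 ± 0.0833 at MHC regions in LNCaP and 0.05 ± 0.0513 in RES-A. The ratio between the sublines was 1.33, with no overlap of the ranges (permutation p = 5e-05). At class III regions the background was -0.23 in LNCaP and 0.30 in RES-A. It was -0.33 and 0.0006 in class I, and -0.47 and -0.12 in class II. The ratio between the sublines was 1.26 in class I, 1.45 in class III and 1.27 in class II. This ratio was 1.33 in chromosome 6 outside the MHC, 1.29 in the flank before the MHC and 1.40 in the flank after it. The part of this background in the share and pileup results was not tested, and the number of copies of chromosome 6 in either subline was not analysed here. With bulk libraries, more cells open at a region and more DNA recovered per cell cannot be told apart.

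**Figure D4:**
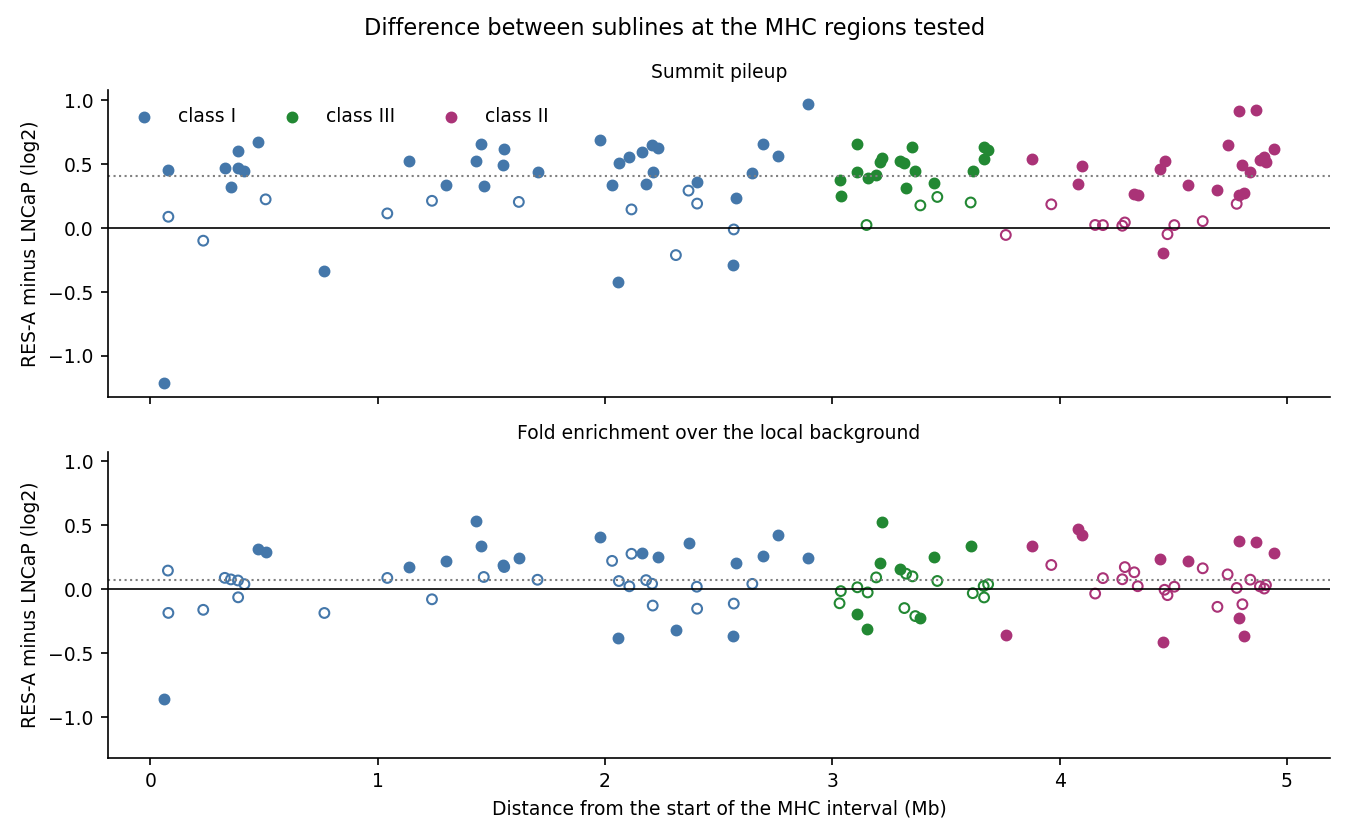
RES-A minus LNCaP in log2 summit pileup (upper) and log2 fold enrichment (lower), y axes, at the 98 MHC regions tested, against distance from the start of the interval in Mb. Each point is a region coloured by class, filled where the limma adjusted p was under 0.05, and the dotted line is the median. Most regions lay above 0 in pileup (median 0.40), and the median fell to 0.07 in fold enrichment.

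At the strongest regions the pileup was higher in RES-A and the fold enrichment was not called. The class III region chr6:31794626-31795546 had a pileup of 1.33 to 2.36 times the library median in LNCaP (median 1.73) and 2.27 to 2.76 times in RES-A (median 2.51). Its log2 difference was 0.51 (SE 0.077, limma adjusted p = 2.96e-06) in pileup and -0.15 (SE 0.0698, adjusted p = 0.0919) in fold enrichment. The same held for the other 5 strongest regions, with pileup differences of 0.43 to 0.63 and fold enrichment differences of 0.02 to 0.10, the latter with adjusted p from 0.282 to 0.812.

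By both measures 25 of the 98 regions were called higher in RES-A and 4 lower. The share of the genome called by both measures was not computed. The largest difference in pileup was at chr6:31371126-31371466 in class I, with 0.431 to 1.0 times the library median in LNCaP (median 0.726) and 1.20 to 1.58 times in RES-A (median 1.39). The ranges did not overlap, and the log2 difference was 0.97 (SE 0.0824, adjusted p = 2.67e-10) in pileup and 0.25 (SE 0.072, adjusted p = 0.0073) in fold enrichment. In class II, chr6:33342084-33342612 had 0.304 to 0.727 times in LNCaP and 0.714 to 1.16 times in RES-A, a log2 difference of 0.92 in pileup (adjusted p = 6.34e-08) and 0.37 in fold enrichment (adjusted p = 0.00289). The region chr6:33265215-33266007, named above for its recurrence, had differences of 0.91 and 0.38.

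The clearest loss in RES-A was again at chr6:28537362-28538034, 0.06 Mb into the interval. It stood at 0.727 to 1.15 times the library median in LNCaP (median 0.91) and at 0.310 to 0.532 times in RES-A (median 0.40). The ranges did not overlap, and the log2 difference was -1.21 (SE 0.0819, adjusted p = 4.78e-12) in pileup and -0.86 (SE 0.0665, adjusted p = 2.93e-10) in fold enrichment. At chr6:30533571-30533966 in class I the differences over all treatments were -0.43 (adjusted p = 0.00017) and -0.38 (adjusted p = 0.000656). Under DHT alone the pileup difference was 0.20 (adjusted p = 0.386), against -0.55 with DMSO, -0.66 with ENZ and -0.69 with DHT+ENZ. With quantile normalization the difference over all treatments was -0.11 and not called (adjusted p = 0.367). The third region named, chr6:29243446-29243611, lies in the nearly empty stretch. It differed by -0.34 in pileup (adjusted p = 0.0352) and by -0.19 in fold enrichment (adjusted p = 0.199), and without the 2 shallowest libraries the pileup difference was -0.14 and not called.

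Treatment differences in the MHC share were smaller than the difference between the sublines. Under each treatment the RES-A libraries lay above the LNCaP libraries without overlap, by 0.0807 percentage points of top-ranked peaks with DMSO, 0.0913 with DHT, 0.0940 with ENZ and 0.0780 with DHT+ENZ. Each exact permutation test of 3 against 3 libraries gave p = 0.1, the smallest it can give. In LNCaP the MHC share was 0.281% ± 0.00611 with DMSO, 0.259% ± 0.0192 with DHT, 0.260% ± 0.0125 with ENZ and 0.286% ± 0.00721 with DHT+ENZ (SD, n = 3). The DHT and DMSO ranges met (exact p = 0.2), while those of ENZ and DMSO, and of DHT+ENZ and DHT, did not overlap (exact p = 0.1 for both, adjusted p = 0.3). The lowest shares with ENZ (0.246%) and DHT (0.238%) were those of the 2 shallowest libraries. With 1 library left out, ENZ minus DMSO in LNCaP ran from -0.0263 to -0.0143 points, and DHT+ENZ minus DHT from 0.017 to 0.036. In RES-A the shares were 0.362% ± 0.00529, 0.350% ± 0.0197, 0.354% ± 0.0191 and 0.364% ± 0.0216, and the ranges overlapped in all 3 comparisons (exact p from 0.4 to 0.7). No treatment effect on the share differed detectably between the sublines (exact p from 0.75 to 0.815 over 400 relabellings).

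DHT changed few MHC regions. In RES-A, DHT against DMSO raised the pileup at 4 of the 98 regions (4.08%), against 9.31% in the genome, and lowered it at none, against 6.18%. In LNCaP no MHC region was called by limma, against 3.17% of the genome raised and 1.28% lowered. At an unadjusted p under 0.05 there were 15 of the 98 MHC regions and 6494 of the 29203 of the genome. By recurrence, 6 MHC regions were top-ranked in all 3 DHT libraries and none of the DMSO libraries of RES-A (2.61%, against 5.62% in the genome), and 3 the other way (1.30%, against 3.41%). In LNCaP these were 3 (1.46%, against 2.16%) and 5 (2.43%, against 1.73%).

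The region that moved most with DHT was chr6:32932527-32933230, 704 bp in class II. In RES-A its pileup over the library median was 0.922, 0.742 and 0.743 with DMSO, and 2.02, 1.95 and 1.97 with DHT. The 2 groups were far apart, and the log2 change was 1.31 (SE 0.133, limma adjusted p = 1.16e-07). Fold enrichment changed by 0.75 (adjusted p = 3.47e-05). With ENZ the values were 1.0, 0.964 and 0.962, and with DHT+ENZ they were 1.51, 1.43 and 1.42, between those of DMSO and DHT. The step from DHT to DHT+ENZ was -0.45 and did not pass (adjusted p = 0.0687). In LNCaP the region stood at 1.35, 1.46 and 1.17 with DMSO and at 1.64, 1.71 and 1.71 with DHT, a change of 0.35 that did not pass (adjusted p = 0.123). The RES-A change was larger than that of LNCaP by 0.96 (SE 0.188, adjusted p = 0.00882). This difference was not called with quantile normalization (0.767, adjusted p = 0.122) or in fold enrichment (0.417, adjusted p = 0.315). RES-A minus LNCaP in pileup was -0.729 with DMSO (limma adjusted p = 0.000168) and 0.231 with DHT (adjusted p = 0.178). The region was the 1 in the MHC whose DHT response differed between the sublines in pileup. In the genome 0.798% of regions had a larger response in RES-A and 0.181% a smaller one.

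The other DHT regions named were weaker. At chr6:33107533-33107944 in class II, the values in RES-A were 0.451, 0.355 and 0.514 with DMSO and 0.857, 0.590 and 0.879 with DHT, a log2 change of 0.81 (SE 0.203, adjusted p = 0.00604) that was not called with quantile normalization (0.68, adjusted p = 0.0951). At chr6:30533571-30533966 in class I, RES-A had 0.451, 0.452 and 0.386 with DMSO, 0.667, 0.615 and 0.776 with DHT, and 0.367, 0.353 and 0.526 with DHT+ENZ. DHT raised it by 0.67 (adjusted p = 0.00797), and the addition of ENZ to DHT changed it by -0.74 (adjusted p = 0.0205), the latter being the one MHC region called in that contrast. With quantile normalization neither change was called (adjusted p = 0.0784 and 0.139), and in fold enrichment the second was not (-0.68, adjusted p = 0.0629). The call of the second was also lost without either of RES-A DHT replicates 1 and 3 or of RES-A DHT+ENZ replicates 1 and 2. In LNCaP the same region changed by -0.07 with DHT (adjusted p = 0.839), but the difference between the sublines did not pass (0.75, adjusted p = 0.163).

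**Figure D5:**
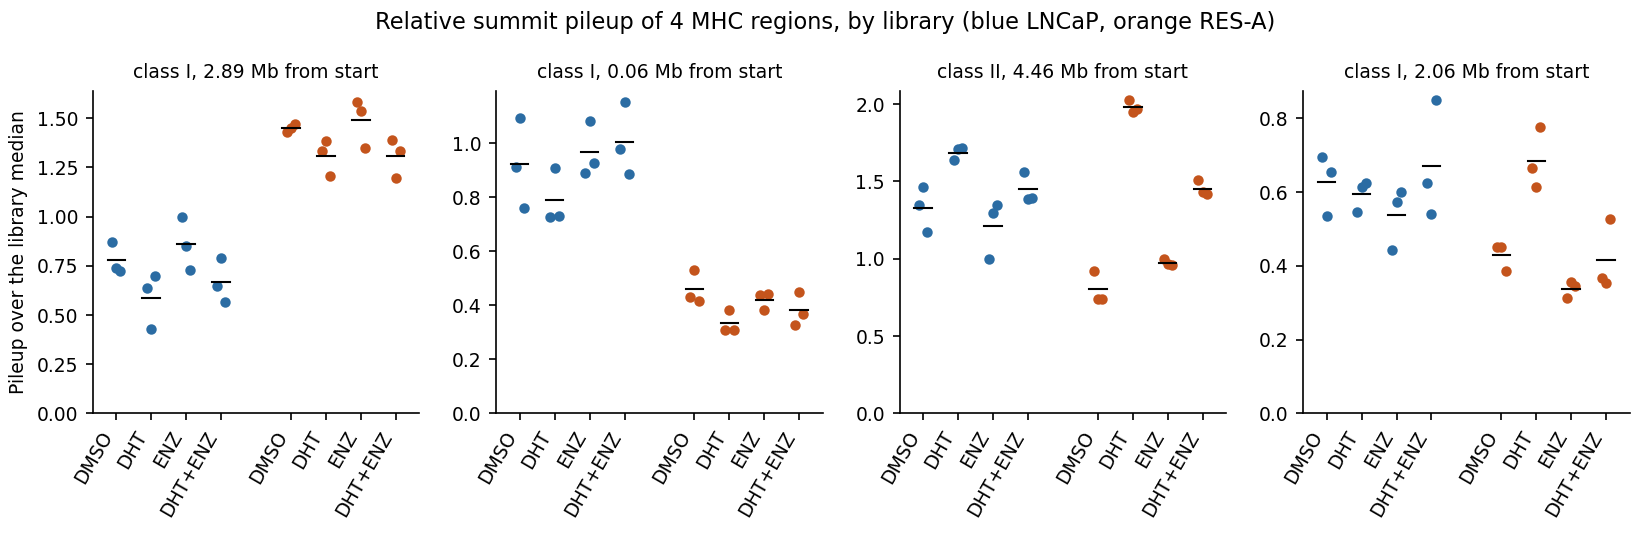
Summit pileup over the library median (y axis, from 0) of 4 MHC regions in each library, by treatment (x axis), with LNCaP in blue, RES-A in orange and group means as lines. From left to right they are the region with the largest gain in RES-A, the one with the largest loss, and 2 regions raised by DHT in RES-A. The third panel, in class II, went from 0.742 to 0.922 with DMSO to 1.95 to 2.02 with DHT in RES-A.

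ENZ on its own changed no MHC region detectably. Against DMSO, limma called 0 of the 98 regions in LNCaP and 0 in RES-A, where the genome had 0.0% called in either direction. At an unadjusted p under 0.05 there were 16 and 2 MHC regions, against 2701 and 1161 of the 29203 regions of the genome. DHT+ENZ against DHT called no MHC region in LNCaP, against 0.0411% of the genome raised and 0.178% lowered. At an unadjusted p under 0.05 there were 5 MHC regions and 3189 of the 29203 of the genome. In RES-A it lowered 1 region and raised none, against 1.47% and 1.26% of the genome.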

How the data were processed

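The authors aligned 50-bp single-end reads to hg19 with BWA 0.7.8-r455, treated duplicates with Picard 1.118 and ran MACS2 2.1.0 on every library separately. The options of MACS2 are not given in the sources used here. The deposited values are the summit pileup (a signal in overlapping fragments, not scaled between libraries), −log10 of p- and q-values, and fold enrichment, a ratio over the local background that the authors' peak caller estimated. Here that background was recovered as (pileup + 1) / fold − 1, which assumes that the caller added 1, and its smallest value in a library stands for depth, since read totals were not used. Peaks were ranked within a list on −log10 p, and the first 50000 were merged into regions with an overlap of at least 1 bp. Class was set by a peak's midpoint.

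The sublines were compared by 100000 relabellings within treatments, groups of 3 by exact permutation, regions called in 6 to 18 libraries by Fisher's exact test, and log2 pileup by limma 3.58.1 (lmFit, eBayes, 8 group means), with Benjamini-Hochberg adjustment over all regions or windows of the genome and a threshold of 0.05. The tests were run in Python 3.11.15 with scipy 1.17.1 and in R 4.3.3, and were tested on simulated data. Replicates are biological per the study's methods. Same-numbered libraries did not all deviate together, so the numbers were not used as pairs, though within LNCaP 9 of 18 pairs correlated at over 0.1. Regions named are, per class, the 2 of highest pileup percentile among those top-ranked in all 24 libraries, per direction the 5 with the largest difference in libraries, and per limma contrast and direction the 3 with the largest change. The region, the classes and the lists of regions were chosen with earlier results of these data known. The genome and gene tables at hand were of another build than hg19, so no gene name or sequence is given.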

Additional observations from a re-analysis of the deposited data

Results flagged for a closer look

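The response of the class II region chr6:32932527-32933230 to DHT differed between the sublines. Its log2 change in summit pileup with DHT against DMSO was larger in RES-A by 0.961 (SE 0.188, limma adjusted p = 0.00882). In fold enrichment the difference was 0.417 and did not pass (adjusted p = 0.315), nor did it with quantile normalization (0.767, adjusted p = 0.122). No other result of the MHC met a rule for a closer look, and groups of 3 libraries were too small for a test of outlying libraries.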

How the results depend on the processing

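Taken as a percentage of the top-ranked peaks of chromosome 6, the RES-A minus LNCaP difference turned to -0.562 points for the MHC, -0.122 for class I, -0.147 for class III and -0.293 for class II. With fold enrichment in place of pileup the relative height turned to -0.0354, -0.0157, -0.110 and -0.0369 in the same order, and on 25000 peaks it was 0.0561 for the MHC (no longer past the threshold) and -0.00517 for class II. With all deposited peaks, added after seeing the data for this comparison, class III against class II in density turned to -0.0778 on the log2 scale. With all deposited peaks the MHC density against the flanks was -0.00200, and the subline difference in it was -0.0859 in class I (now past the threshold) and -0.0307 in class III (no longer). With 10-Mb flanks class I stood at 0.125 with a subline difference of -0.125, and against the rest of chromosome 6 at 0.733. Treatment differences in the MHC share turned with all deposited peaks for DHT+ENZ against DHT (-0.00479 in LNCaP, -0.00676 in RES-A) and for DHT against DMSO in RES-A (0.0059), and on 25000 peaks for DHT+ENZ against DHT in RES-A (-0.00133). ENZ against DMSO in RES-A ran from -0.017 to 0.002 when 1 library was left out, turning without RES-A ENZ replicate 3. The causes were not tested.

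Regions called in one subline more often numbered 103 of 223 tested with all deposited peaks (83 for RES-A, 20 for LNCaP), 25 of 54 with 25000 peaks (24 and 1) and 82 of 183 on 500-bp tiles (72 and 10). In the genome these were 56823 of 125323, 10882 of 21529 and 37889 of 73919. Windows that differed were 5 of 5 tested at 1 Mb and 13 of 15 at 250 kb, against 1777 of 2539 and 2373 of 4306 in the genome. Regions that differed in pileup numbered 40 of 98 by fold enrichment (29 and 11), 40 of 48 among those top-ranked in all 24 libraries (39 and 1) and 44 of 98 after centring on chromosome 6 outside the MHC (25 higher and 19 lower), an alternative chosen after seeing the data. In the genome these were 12348 of 29203, 6371 of 12669 and 21964 of 29203. Quantile normalization left 3 lower. For DHT in LNCaP the count was 2 with quantile normalization, 4 with log2 background as a covariate, and 0 to 3 without 1 library (3 without LNCaP ENZ replicate 1, 2 without LNCaP DHT replicate 2, and 1 without LNCaP DMSO replicate 1, DHT replicate 3 or DHT+ENZ replicate 1 or 2). The genome had 2141 of 29203 regions called with quantile normalization and 2374 with the covariate. For DHT in RES-A the MHC count was 1 with quantile normalization, 0 among regions top-ranked everywhere, and 2 to 5 without 1 library (2 without RES-A DMSO replicate 2). The genome had 2960 of 29203 called with quantile normalization and 1082 of 12669 among regions top-ranked everywhere. For DHT+ENZ against DHT in RES-A the MHC count was 0 with fold enrichment, quantile normalization or regions top-ranked everywhere, 2 with the covariate or without the shallow libraries, and 0 to 2 without 1 library (2 without LNCaP ENZ replicate 1). In the same order of settings the genome had 180, 187, 70, 1300 and 1700 called. For the difference in DHT response the MHC count was 0, 0, 0 and 2 with fold enrichment, quantile normalization, regions top-ranked everywhere and the covariate. The genome had 126, 27, 5 and 647 called in the same order. At chr6:29243446-29243611 the pileup difference turned to 0.0206 with quantile normalization, and for calls at any rank chr6:32379738-32380154 and chr6:30790353-30790768 turned to 8.33 points each.

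A replicate block, in which libraries of the same treatment and number were paired, gave an exact sign-flip permutation p of 0.000488 for the MHC share, the smallest that 12 pairs can give. Under the block, MHC regions called more often in one subline fell from 48 to 32 of the 93 tested. Those for RES-A fell from 42 to 28 and those for LNCaP from 6 to 4. In the genome the count fell from 22295 to 18088 of 38599. The block gave 1 DHT region in LNCaP in place of 0, and changed no other count by over 1.5 times. Among the regions named, chr6:30790353-30790768 lost its call under the block (adjusted p = 0.0543). Same-numbered libraries of the 2 sublines correlated at -0.106 to 0.107 in their deviations, and those of different treatments at -0.195 to 0.368 within LNCaP (median 0.109, 9 of 18 pairs over 0.1) and at -0.0863 to 0.0995 within RES-A. Not every pair was over 0.1, and the libraries were taken to share only a number. Within LNCaP the same-numbered libraries may not be independent.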

Other observations

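Of the 288 MHC regions, 4 (1.39%) had no deposited peak of any rank in RES-A and 1 (0.347%) had none in LNCaP, against 7.25% and 2.40% of the regions of the genome and 4.04% and 3.47% of those of the rest of chromosome 6. The 3 regions below were picked after their values were seen and carry no test. The class II region chr6:32690597-32690976 had a peak in 10 LNCaP libraries, top-ranked in 4, and in no RES-A library. The class I region chr6:28718737-28719213 likewise had a peak in 10 LNCaP libraries and in no RES-A library. In the other direction, chr6:31213812-31214164 in class I had a peak in 11 RES-A libraries, top-ranked in 2, and in none of LNCaP.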
